A study of Homo sapiens with 12 samples.

Results

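Genes that have been described as targets of miR-211 in the invasion of melanoma cells were followed in HEK293T cells: POU3F2, SOX4, SNAI1, NFAT5, TGFBR1, TGFBR2, IGF2R, KCNMA1, RAB22A and PDK4. They were taken by name and are 10 of the 58735 genes in the count tables. HEK293T is an embryonic kidney line, not a melanoma line, and the genes were measured here in that setting only.

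A microRNA is loaded into an Argonaute protein and pairs, mainly through its seed (the bases near its 5′ end), with sites in the 3′ UTR of messenger RNAs, which are then translated less or degraded. The miR-211 gene lies in an intron of TRPM1, a gene that melanocytes express, and melanoma biology knows miR-211 as a microRNA that is often lost as the tumour becomes invasive. Its reported targets in that setting include transcription factors that drive invasive states, receptors of the TGF-beta pathway, a potassium channel, a vesicle regulator and a metabolic kinase.

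The study, titled for its interest in splicing and intronic microRNAs, sequenced RNA of HEK293T cells in 4 groups of 3 libraries. Cells given the miR-211 plasmid (500 ng) were set against cells given a control plasmid (500 ng). Cells given 1 nM of a Dicer-substrate siRNA against the U1 small nuclear RNA, which recognises 5′ splice sites, were set against cells given a scrambled oligo, whose dose the labels do not state. The labels of the oligo groups add WT, which those of the plasmid groups do not carry. RNA of all groups was taken 24 h after transfection. The labels give only a lower bound for the share of cells that took up plasmid and describe the inhibition of U1 as partial, so each library may mix affected and unaffected cells. Whether replicates are separate cultures is not labelled. The p-values here reflect the spread among libraries and nothing more, and that spread may be technical.

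A miR-211 library held 6070116 to 8459646 gene counts and a control plasmid library 6226067 to 7484566. The totals were 4515728 to 6343000 in U1 siRNA libraries and 5903205 to 9290686 in scrambled oligo libraries. One library, U1 siRNA replicate 2, differed from the others. It had the lowest total and 44.5% of uniquely mapped pairs outside annotated exons (14.5% to 25.5% in the other libraries). Its summed level of fibroblast markers was 19.5 CPM (a gene's count scaled to the total gene count of its library), against at most 8.28 CPM in any library of the other groups. Blood cell markers summed to at most 3.54 CPM in the U1 siRNA group and 1.2 CPM in any other group. Melanocyte markers, given below, were highest in the U1 siRNA group too. The MIR211 gene, which checks the plasmid, had 1646, 1997 and 1976 counts with the miR-211 plasmid, against 1, 9 and 1 with the control plasmid. These counts over the hairpin gene give no level for the mature microRNA. Of 7 genes known to mark HEK293T, 6 averaged at least 1 CPM in every group, led by the neurofilament gene NEFL at 73.2 to 108 CPM, while the kidney factor PAX2 was at 0 to 0.534 CPM. Of 10 melanocyte genes, 3 to 5 averaged at least 1 CPM in a group, and their summed level was 15.2 to 22.9 CPM with miR-211, 13.5 to 21 CPM with the control plasmid, 13.9 to 31.7 CPM with U1 siRNA and 17.6 to 18.6 CPM with the scrambled oligo. Over all 12 libraries, U1 siRNA replicate 2 included, MITF led them with 8.78 to 16.4 CPM. The miR-211 host gene TRPM1 ranged from 0.118 to 5.31 CPM and PMEL from 0.678 to 2.44 CPM. TYR and SOX10 reached at most 0.886 and 0.494 CPM.

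The mature sequence of miR-211-5p is shown because its seed defines the sites that follow, and that of miR-204-5p because both share the same seed. Sequences are from RefSeq (GRCh38.p14), written 5′ to 3′, with bases 2 to 8 in capitals. The mature miR-211-5p is annotated at chr15:31065095-31065116 and miR-204-5p at chr9:70810031-70810052, both on the minus strand.
hsa-miR-211-5p: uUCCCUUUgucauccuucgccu
hsa-miR-204-5p: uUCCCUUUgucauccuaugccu

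Matches to the seed were sought on the sense strand of the longest annotated 3′ UTR of each protein-coding gene in GENCODE 29. An 8mer was AAAGGGAA, a 7mer-m8 was AAAGGGA without the closing A, and a 7mer-A1 was AAGGGAA without the opening A, so that the longer match holds both shorter ones and each place was counted once, as its longest kind. All 10 genes held at least 1 match, and 7 of 10 held an 8mer. Of 19128 genes with an annotated 3′ UTR, 25.5% held a match of some kind and 8% an 8mer. The 3′ UTRs of the listed genes were long, 830 bases in SNAI1 and 2142 to 8315 bases in the others, against a median of 1103 bases over all genes, and reports of targets usually start from such matches. The counts of matches are therefore descriptions of the list and no independent evidence, and a match does not show that the microRNA acts there.

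The following stretches of 28 bases end in the match, given in capitals. They are shown for the genes that were lower with miR-211 in each pair of libraries (SOX4, SNAI1, NFAT5, TGFBR1), for RAB22A, which held the most matches, and for those that were higher in each pair (KCNMA1, PDK4).
SOX4 8mer: agacgaagagtttaaagagaAAAGGGAA
TGFBR1 8mer: catacagactaatttttctaAAAGGGAA
NFAT5 7mer-A1: tacaggcttcttgccgatatgAAGGGAA
SNAI1 7mer-m8: gggcaatttaacaatgtctgaAAAGGGA
RAB22A first 8mer: agattttatgtaacatttgtAAAGGGAA
RAB22A second 8mer: cctcttattcttaaatatctAAAGGGAA
KCNMA1 8mer: acccctttgttcatatttttAAAGGGAA
PDK4 7mer-m8: tctgtttttgataagaataagAAAGGGA

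On GRCh38 the SOX4 stretch lies at chr6:21596038-21596065 (plus strand), TGFBR1 at chr9:99150311-99150338 (plus), NFAT5 at chr16:69698175-69698202 (plus) and SNAI1 at chr20:49988624-49988651 (plus). The RAB22A stretches lie at chr20:58360011-58360038 and chr20:58362924-58362951 (plus), KCNMA1 at chr10:76877058-76877085 (minus) and PDK4 at chr7:95585332-95585359 (minus). The SOX4 8mer starts 99 bases after the stop codon, and SOX4 also holds a 7mer-m8 at base 2057. RAB22A holds 5 matches, more than any other listed gene, between bases 215 and 3933 of a 3′ UTR of 7804 bases. POU3F2 holds an 8mer and a 7mer-m8, KCNMA1 an 8mer and a 7mer-A1, and IGF2R and TGFBR2 an 8mer each. In NFAT5, PDK4 and SNAI1 the only match is a 7mer.

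**Figure D1:**
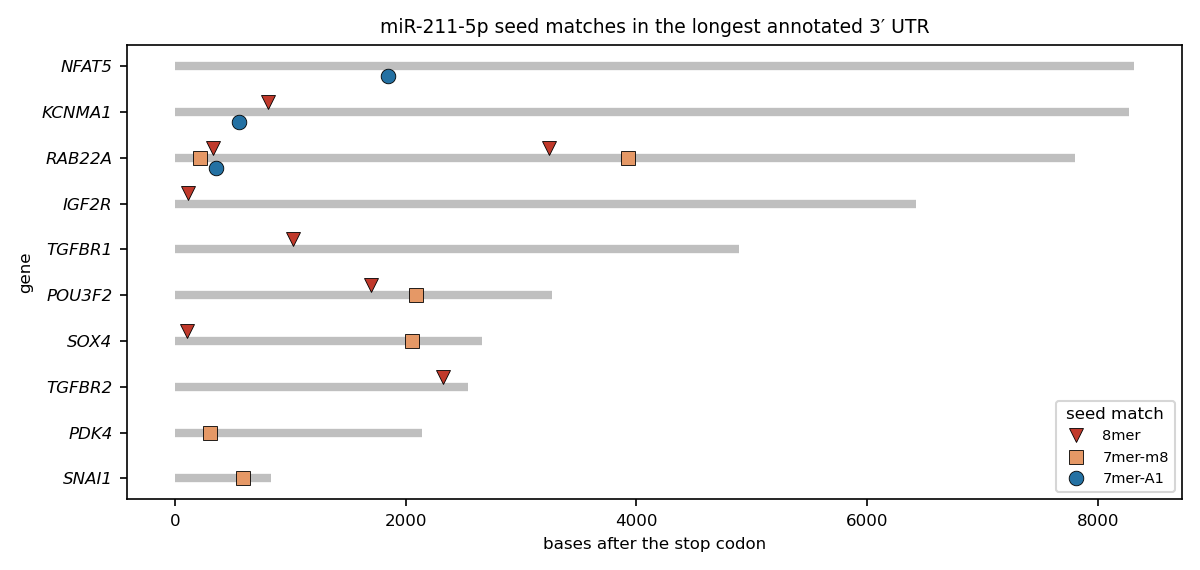
Positions of the matches to the miR-211-5p seed in the longest annotated 3′ UTR of each gene, in bases after the stop codon; grey bars give the length of the 3′ UTR and markers the kind of match. RAB22A holds 5 matches and SOX4 holds its 8mer 99 bases after the stop codon.

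HEK293T cells expressed 6 of the 10 genes well above 1 CPM and the other 4 near that level. CPM were divided by the annotated exon length in kilobases to compare levels between genes. SOX4, a transcription factor of progenitor cells, stood far above the rest with 48 CPM per kb (SD 5.63 over 12 libraries, 36.4 to 54.7), higher than 94.8% of the 19145 protein-coding genes detected. TGFBR1, the signalling kinase of the TGF-beta receptor pair, came next with 3.66 CPM per kb (SD 0.317, 3.33 to 4.37). The ranges of SOX4 and TGFBR1 overlapped neither each other nor those of the genes below them.

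From RAB22A downward each gene overlapped the next in order. RAB22A, a small GTPase of early endosomes, had 1.84 CPM per kb (SD 0.302), NFAT5, a transcription factor that responds to osmotic stress, 1.68 (SD 0.194), and POU3F2, a POU-domain factor of neural cells also known as BRN2, 1.16 (SD 0.23). SNAI1, a repressor of E-cadherin, had 0.855 CPM per kb (SD 0.293) and IGF2R, the receptor that carries mannose 6-phosphate proteins and clears IGF2, 0.756 (SD 0.142). TGFBR2, the TGF-beta receptor that binds ligand first, had 0.382 CPM per kb (SD 0.113), below its partner TGFBR1 in every library. PDK4, an inhibitory kinase of pyruvate dehydrogenase, had 0.197 CPM per kb (SD 0.0656), and KCNMA1, the pore subunit of the BK potassium channel, had 0.0425 (SD 0.0418), higher than only 8.54% of the protein-coding genes. The exon length of KCNMA1, 35644 bases over all annotated transcripts, lowers its value per kb. The 4 lowest genes by CPM averaged 1.44 (SNAI1), 1.8 (TGFBR2), 1.51 (KCNMA1) and 0.889 CPM (PDK4), and had 72 to 144 counts in all 12 libraries together.

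**Figure D2:**
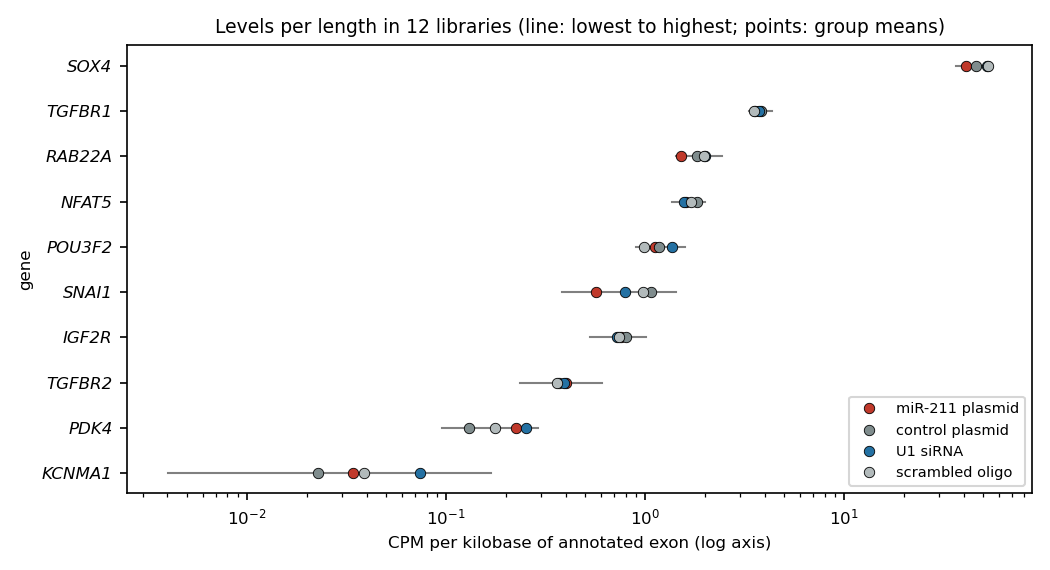
Level of each gene in CPM per kilobase of annotated exon, on a log axis; points are means of 3 libraries for each group and lines run from the lowest to the highest of 12 libraries. SOX4, with 36.4 to 54.7 CPM per kb, stands above all others, and TGFBR1 is second.

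None of the 10 genes passed the test with the miR-211 plasmid. Of the 8 that had enough counts for it, 7 were lower and 1 was higher in value than with the control plasmid, and the sizes were small. These counts depend on the filter. Among the 7, SNAI1 passed it through 2 control libraries and 1 miR-211 library. KCNMA1 and PDK4, which it left out, had ratios of summed counts of 1.47 and 1.7, with intervals that include 1. SOX4 had 0.907 times its control level (95% interval 0.803 to 1.02) and RAB22A 0.854 times (0.696 to 1.05). The largest difference in value was that of SNAI1 with 0.553 times (0.288 to 1.06), on few counts. Among the 12685 genes tested with edgeR's quasi-likelihood test, 0.00788% had an adjusted p under 0.05. That was 1 gene, MIR211, with none lower, while 3.29% had an unadjusted p under 0.05 (417 genes; 943 with the replicate numbers as a block, 188 with DESeq2, 1313 without a filter and 290 to 875 with 1 library left out) and none of the listed genes did in the fit without the block. For the fit with the block, only adjusted p were kept for the listed genes (edgeR, lowest 0.645, SOX4). Whether any had an unadjusted p under 0.05 there is therefore not given. The edgeR intervals given here are from the fit without the block. Of all tested genes, 48.2% were lower in value, and the median log2 fold change was 0.01, against -0.11 for the 8 listed genes. The direction of 4 of the 8 turned when 1 library was left out, as given below. A smaller share of cells that express a gene and less of its RNA per cell cannot be told apart in such bulk libraries, nor can a change in some cells and a smaller one in all of them.

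**Figure D3:**
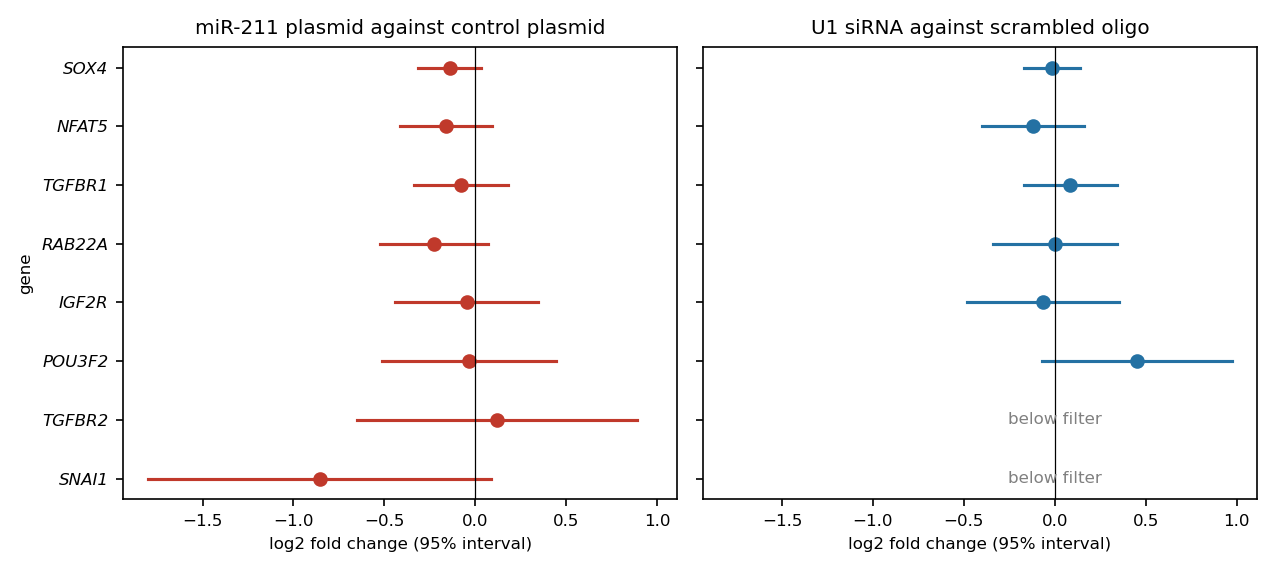
Log2 fold changes from edgeR with 95% intervals for the 8 genes tested with miR-211 plasmid against control plasmid (left) and for the 6 tested with U1 siRNA against scrambled oligo (right); KCNMA1 and PDK4 were below the filter in both. Every interval includes 0, and that of SNAI1 is the widest.

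SOX4 was the most precisely measured of the transcription factors, with 1370 to 2962 counts per library. It had 253, 251 and 213 CPM with the miR-211 plasmid, against 261, 279 and 266 CPM with the control plasmid. The groups did not overlap, with miR-211 replicate 3 farthest below the others. Groups did not overlap with miR-211 lower in 6.42% of all genes tested, and SOX4 was 1 of 8 listed genes to do so. None of the 8 lay wholly above the controls, as 3.29% of all tested genes did. The edgeR log2 fold change was -0.14 (SE 0.08, adjusted p 0.996, or 0.645 with the replicate block) and -0.06 without miR-211 replicate 3. The ratio of summed counts, 0.887, had an interval of 0.854 to 0.921, which covers counting error only and not the spread between libraries.

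SOX4 also separated the plasmid libraries from the oligo libraries. With U1 siRNA it had 320, 303 and 299.8 CPM, against 312, 296 and 319 CPM with the scrambled oligo, and these groups overlapped fully (log2 fold change -0.01, SE 0.07, 95% interval -0.17 to 0.14). Over the 6 plasmid libraries its median was 257 CPM (213 to 279), and over the 6 oligo libraries 308 CPM (296 to 320). The gap between plasmid and oligo libraries was thus wider than that between the miR-211 and control plasmids. Plasmid libraries lay below all oligo libraries in 0.947% of 13520 genes, and SOX4 was the one listed gene among them. None of the listed genes lay above them, as 0.577% of all genes did. Kind of transfection and any batch that goes with it cannot be told apart.

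Of the 8 tested genes, SNAI1 had the ratio farthest from 1 and the fewest counts. It had 0.824, 1.42 and 0.647 CPM with the miR-211 plasmid (5, 12 and 5 counts), against 1.12, 1.87 and 2.4 CPM with the control plasmid (7, 13 and 18 counts). Replicates 1 and 3 with miR-211 lay below all controls, but replicate 2 lay above control replicate 1, so that the groups overlapped. The edgeR log2 fold change was -0.85 (SE 0.44, 95% interval -1.80 to 0.09, adjusted p 0.996). Leaving out miR-211 replicate 3 gave -0.62 and leaving out miR-211 replicate 2 gave -1.29, and SNAI1 was below the filter without control replicate 3. It had passed the filter of 1.39 CPM through 2 control libraries and 1 miR-211 library, so its entry into the test leaned on the control group. With U1 siRNA SNAI1 had 1.26, 1.55 and 1.22 CPM, against 2.04, 1.52 and 1.4 CPM with the scrambled oligo, overlapping groups that were below the filter (ratio of summed counts 0.807, 0.454 to 1.4).

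NFAT5 had 28.8, 27.2 and 22.9 CPM with the miR-211 plasmid, against 32.9, 29.2 and 27.9 CPM with the control plasmid. Its groups overlapped by a single library, since miR-211 replicate 1 lay above control replicate 3. The log2 fold change was -0.16 (SE 0.12, 95% interval -0.42 to 0.09, edgeR adjusted p 0.996) and -0.07 without miR-211 replicate 3. A same-strand gene, AC012321.1, and the antisense MIR1538 overlap its exons. The strand-specific count columns divided its counts near evenly, 1104 in strand column 3 and 1139 in strand column 4. On these smaller counts the value was -0.36 in strand column 3 and 0.02 in strand column 4. POU3F2, whose exons no other gene overlaps, also had opposite signs there, 0.46 and -0.47. The part of the overlapping genes in the NFAT5 values was not tested. With U1 siRNA NFAT5 had 24.4, 30.8 and 22.5 CPM, against 27.3, 30.3 and 26.1 CPM with the scrambled oligo. These groups overlapped, with U1 siRNA replicate 2 highest of all 6, and the log2 fold change was -0.12 (SE 0.13), or -0.23 without U1 siRNA replicate 2 and -0.05 without U1 siRNA replicate 3.

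POU3F2 had 5.93, 6.03 and 4.4 CPM with the miR-211 plasmid, against 7.07, 5.76 and 4.41 CPM with the control plasmid. Replicate 3 was the lowest of both groups, and the groups overlapped. The log2 fold change of -0.04 (SE 0.22, 95% interval -0.51 to 0.44) turned to 0.11 without control replicate 1 and without miR-211 replicate 3, so no direction can be given. With U1 siRNA POU3F2 had 6.94, 7.75 and 5.23 CPM, against 4.5, 5.08 and 4.84 CPM with the scrambled oligo. These groups did not overlap, as in 3.54% of the 12413 genes tested there with U1 siRNA higher, and POU3F2 was 1 of 6 listed genes to do so. None of the 6 lay wholly below the scrambled oligo, as 2.92% of all tested genes did. Its log2 fold change of 0.45 (SE 0.24, 95% interval -0.07 to 0.97, edgeR adjusted p 1) was 0.36 without U1 siRNA replicate 2, and the gene rested on 109 counts in the U1 siRNA libraries and 108 in those of the scrambled oligo.

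Of the receptors, TGFBR1 had 26.9, 23.4 and 22.8 CPM with the miR-211 plasmid, against 29.9, 24.6 and 24.2 CPM with the control plasmid. Replicate 1 was the highest in each group, and the groups overlapped. Its log2 fold change of -0.08 (SE 0.12, 95% interval -0.34 to 0.18, edgeR adjusted p 0.996) moved to 0.0006 without control replicate 1 and to -0.16 without miR-211 replicate 1. With U1 siRNA TGFBR1 had 27, 27 and 23 CPM, against 24.3, 24.9 and 23 CPM with the scrambled oligo, with overlapping groups and a log2 fold change of 0.09 (SE 0.12), or 0.14 without U1 siRNA replicate 3 and 0.03 without U1 siRNA replicate 1. As a fold, the interval with miR-211 ran from 0.791 to 1.13 times the control level.

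TGFBR2 had 14, 12 and 15 counts with the miR-211 plasmid (2.31, 1.42 and 1.94 CPM), against 11, 9 and 16 counts with the control plasmid (1.77, 1.29 and 2.14 CPM). The groups overlapped throughout. It was the 1 tested gene of the list that was higher in value, with a log2 fold change of 0.12 (SE 0.36, 95% interval -0.65 to 0.89), which was -0.04 without miR-211 replicate 1 or without control replicate 2 and 0.31 without control replicate 3. With U1 siRNA it was below the filter, with 7, 13 and 9 counts against 17, 9 and 12 with the scrambled oligo (ratio of summed counts 1.04, 0.616 to 1.72).

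IGF2R had 10.4, 12.1 and 18 CPM with the miR-211 plasmid, against 15.3, 12.5 and 15.2 CPM with the control plasmid. The miR-211 libraries held both the lowest and the highest of the 6 values. Its log2 fold change was -0.05 (SE 0.18, 95% interval -0.44 to 0.34), 0.08 without miR-211 replicate 1 and -0.31 without miR-211 replicate 3. With U1 siRNA IGF2R had 13.2, 16.2 and 9.41 CPM, against 12.4, 11.9 and 15.4 CPM with the scrambled oligo. The U1 siRNA libraries again held both extremes, and the log2 fold change of -0.06 (SE 0.19) was -0.21 without U1 siRNA replicate 2 and 0.11 without U1 siRNA replicate 3.

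RAB22A, the gene with the most seed matches, had 13.3, 15.5 and 13.7 CPM with the miR-211 plasmid, against 19.1, 14.7 and 17.4 CPM with the control plasmid. The groups overlapped through replicate 2 alone, which was the highest with miR-211 and the lowest with the control. The log2 fold change was -0.23 (SE 0.14, 95% interval -0.52 to 0.07, edgeR adjusted p 0.996), and it stayed between -0.31 and -0.16 with any 1 library left out. With U1 siRNA RAB22A had 16.9, 22.6 and 16.4 CPM, against 18.3, 21 and 16 CPM with the scrambled oligo. Both groups were highest in replicate 2 and overlapped fully, with a log2 fold change of 0.002 (SE 0.16), which was -0.12 without U1 siRNA replicate 2 and 0.10 without scrambled replicate 2.

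KCNMA1 and PDK4 were too low for the test in both comparisons. KCNMA1 had 6, 6 and 15 counts with the miR-211 plasmid, against 6, 1 and 10 with the control plasmid, overlapping groups with a ratio of summed counts per depth of 1.47 (95% interval 0.775 to 2.88). With U1 siRNA it had 8, 27 and 4 counts, against 8, 11 and 11 with the scrambled oligo. The 27 counts (5.98 CPM) were those of U1 siRNA replicate 2, the library with the most pairs outside exons and the highest fibroblast markers. Blood cell and melanocyte markers were also highest in its group. The part of any of these in the KCNMA1 value was not tested. An antisense gene, KCNMA1-AS1, overlaps 419 bases of the KCNMA1 exons, where an unstranded read cannot be assigned to either gene. The unstranded count of KCNMA1 over the 12 libraries, 113, was 0.966 times the sum of its strand columns (63 and 54).

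PDK4 had 8, 6 and 8 counts with the miR-211 plasmid, against 5, 3 and 4 with the control plasmid. In CPM these were 1.32, 0.709 and 1.03 with miR-211 and 0.803, 0.432 and 0.534 with the control, so that only miR-211 replicate 2 lay within the control range. The ratio was 1.7 (95% interval 0.806 to 3.77). With U1 siRNA PDK4 had 7, 5 and 7 counts, against 6, 3 and 10 with the scrambled oligo, a ratio of 1.36 (0.68 to 2.71), and its CPM groups did not overlap, with U1 siRNA higher, as in 3.54% of the genes above the filter. At these counts a moderate difference in either direction was not detectable.

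**Figure D4:**
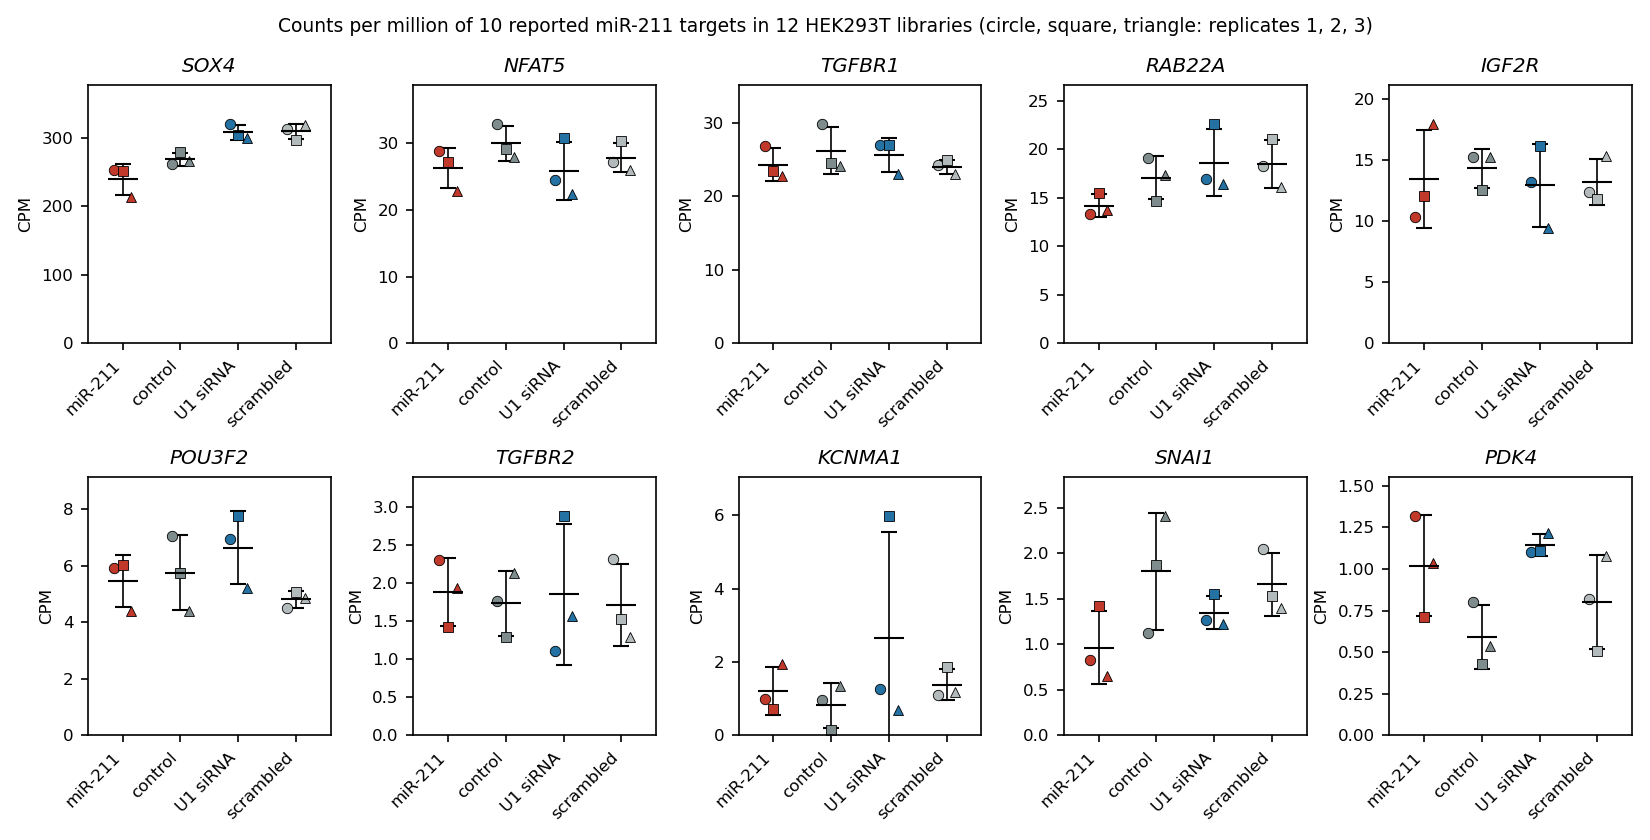
CPM of each gene in the 12 libraries (circle, square and triangle for replicates 1, 2 and 3); horizontal lines are group means and error bars the SD of 3 libraries, cut at 0. SOX4 separates the 6 plasmid libraries (213 to 279 CPM) from the 6 oligo libraries (296 to 320 CPM), while the other genes overlap between plasmid and oligo libraries.

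Changes were also taken within pairs of same-numbered libraries, as differences in log2 CPM with a prior count of 2. With miR-211, 4 of the 8 tested genes were lower in all 3 pairs, where 18.6% of all tested genes were. SOX4 had changes of -0.04, -0.15 and -0.32 in pairs 1, 2 and 3. NFAT5 had -0.19, -0.10 and -0.28, and TGFBR1 -0.15, -0.07 and -0.09. SNAI1 had -0.34, -0.34 and -1.52, the largest single change among the tested genes, but its entry into the test leaned on the control group. With TMM scaling, which removes a general shift between libraries, they were the same 4 genes of the 8, where 14.5% of all tested genes were lower in all 3 pairs.

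The remaining genes did not hold a direction across the miR-211 pairs or lay below the filter. RAB22A had -0.51, 0.08 and -0.33, IGF2R -0.54, -0.05 and 0.24, POU3F2 -0.24, 0.06 and -0.004, and TGFBR2 0.34, 0.11 and -0.12. PDK4, with 0.56, 0.47 and 0.68, and KCNMA1, with 0.03, 1.2 and 0.46, were higher in all 3 pairs on their few counts, whereas none of the 8 tested genes was (11.8% of all tested genes, 14.7% with TMM scaling). The median change of the 8 tested genes was -0.22, -0.06 and -0.20 in pairs 1, 2 and 3, against -0.04, -0.01 and -0.03 over all tested genes.

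Same-numbered U1 siRNA and scrambled libraries did not all deviate together across all genes tested (r 0.14, 0.0907 and -0.048 in pairs 1, 2 and 3). Only pair 1 was over the limit of 0.1, so their pairs are by number only, a choice that depends on the gene set (given under processing). With U1 siRNA none of the 6 tested genes was lower in all 3 pairs, where 9.88% of all tested genes were. One of them, POU3F2, was higher in all 3, with 0.59, 0.58 and 0.10, where 11.7% of all tested genes were. Below the filter, PDK4 was higher in all 3 U1 siRNA pairs too, with 0.33, 0.81 and 0.14. In pair 3 its raw count was lower with U1 siRNA (7 against 10), so that sign rests on scaling to depth. The shares of all tested genes cover genes above the filter only. SOX4 had 0.04, 0.03 and -0.09 in these pairs, TGFBR1 0.15, 0.12 and -0.002, and NFAT5 -0.16, 0.02 and -0.21. With TMM scaling NFAT5 was lower (9.55% of all tested genes) and TGFBR1 was higher besides POU3F2 (10.8%) in all 3 pairs, so these counts depend on the scaling.

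**Figure D5:**
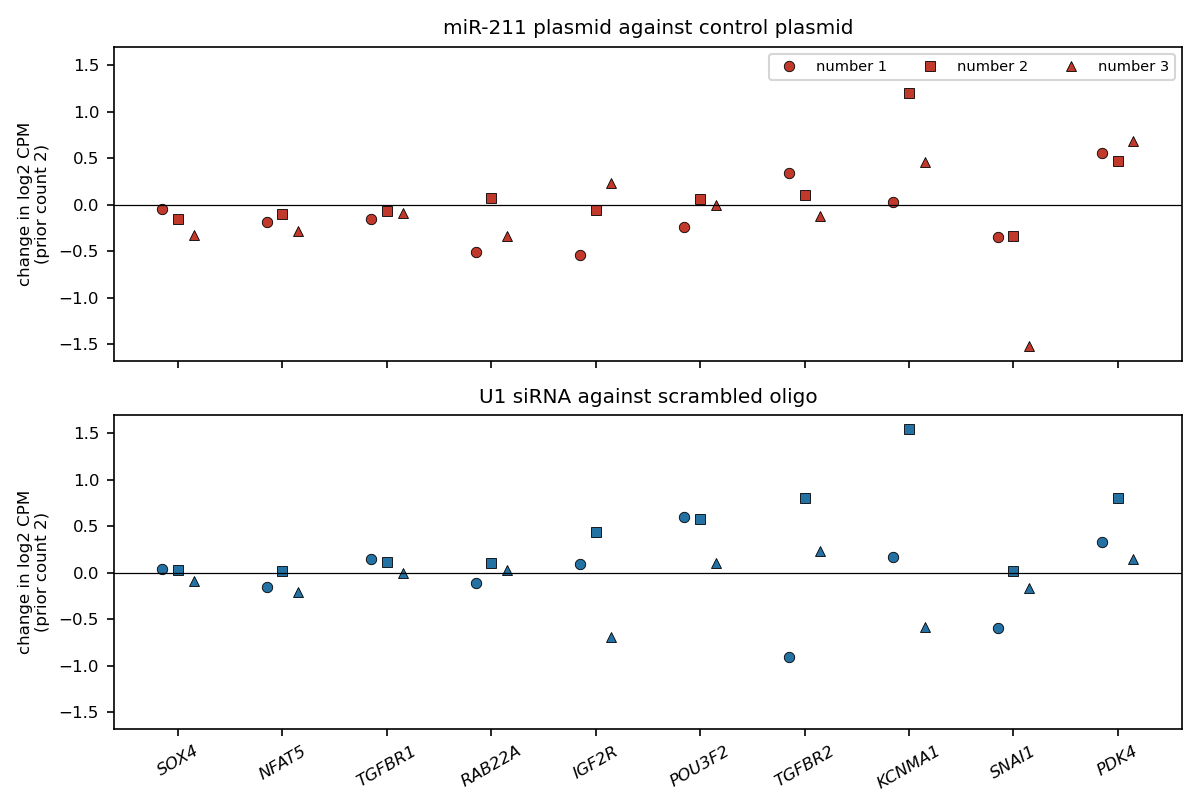
Change in log2 CPM (prior count 2) within each same-numbered pair, for miR-211 plasmid minus control plasmid (top) and U1 siRNA minus scrambled oligo (bottom). With miR-211, SOX4, NFAT5, TGFBR1 and SNAI1 lie below 0 in all 3 pairs and PDK4 and KCNMA1 above it, and SNAI1 in pair 3 is the lowest point at -1.52.

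None of the 6 genes tested with U1 siRNA passed either, and nor did any of all 12413 genes (0% with an edgeR adjusted p under 0.05; 1.58% at an unadjusted p under 0.05, 77 genes with DESeq2 and 180 with limma-voom). Of the 6, 3 were lower in value, where 45.3% of all tested genes were, and their median log2 fold change was -0.01, against 0.02 over all tested genes. That median was 0.09 without U1 siRNA replicate 3 and -0.05 without U1 siRNA replicate 2. The difference between the miR-211 and U1 siRNA effects was tested for 9 of the 10 genes, all but PDK4, over the 12 libraries. None passed (edgeR adjusted p 0.999 for each), where 0.0074% of 13520 genes did, MIR211 alone, and 1.73% had an unadjusted p under 0.05. SNAI1, TGFBR2 and KCNMA1 rested on 119, 144 and 113 counts over the 12 libraries, too few to show a moderate difference between both effects.

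The genes around the listed ones in their pathways were read from 13 lists. With miR-211, 0 of the 84 tested of 120 genes passed, 44 were higher and 40 lower in value, and their median log2 fold change was 0.01. With U1 siRNA, 0 of 81 passed, with 50 higher and 31 lower in value. In the TGF-beta pathway with miR-211, 0 of 37 tested genes passed, with 18 higher and 19 lower in value. Its other receptors included ACVR2B, an activin receptor, with 40.4 ± 2.88 CPM with the miR-211 plasmid and 46.5 ± 2.34 CPM with the control plasmid (SD, n = 3 each; log2 fold change -0.17), and BMPR2, a BMP receptor, with 25.7 ± 2.34 and 28.8 ± 3.74 CPM (-0.14). ID2, a target of BMP and TGF-beta signals, had 438 ± 10.6 CPM with miR-211 and 452 ± 20.6 CPM with the control (-0.01).

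Relatives of SNAI1 and the genes of the epithelial to mesenchymal transition gave 9 higher and 4 lower in value of 13 tested, with none passing. SNAI2, the SNAI1 paralogue, had 78.8 ± 8.77 CPM with miR-211 and 79.2 ± 18.6 CPM with the control (log2 fold change 0.02). ZEB1, a repressor of E-cadherin, had 72 ± 5.08 CPM with miR-211 and 65.6 ± 3.62 CPM with the control (0.16), and the mesenchymal filament VIM had 55.4 ± 4.51 and 57.1 ± 3.82 CPM (-0.01).

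Around the other genes, none passed either. AKR1B1, an osmotic target of NFAT5, had 630 ± 50.3 CPM with miR-211 and 600 ± 65 CPM with the control (log2 fold change 0.10). SOX12, the relative of SOX4 with the highest count, had 5.15 ± 0.691 and 6.33 ± 0.644 CPM (-0.26). KCNMB4, a beta subunit of the BK channel, had 4.46 ± 1.43 and 4.94 ± 0.414 CPM (-0.15). PDHA1, the subunit of pyruvate dehydrogenase that PDK4 phosphorylates, had 631 ± 21.1 and 608 ± 16.7 CPM (0.08). M6PR, the smaller mannose 6-phosphate receptor beside IGF2R, had 115 ± 14.8 and 116 ± 2.72 CPM (0.02), and RAB5A, an early endosome GTPase like RAB22A, had 59.7 ± 9.16 and 62.9 ± 10.8 CPM (-0.05). POU2F1, a POU-domain relative of POU3F2, had 47.4 ± 3.02 and 48.8 ± 3.48 CPM (-0.01).

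Across the 12 libraries, the patterns most like those of the 3 listed genes with the highest counts were sought among 7427 genes with a mean of at least 10 CPM. The measure was Pearson's r of log2 CPM with a prior count of 2. The libraries share treatment, kind of transfection and depth, so these values are descriptions. SOX4 was followed most closely by ETNK1 (r 0.949), LIN7A (0.932) and C12orf29 (0.931). NFAT5 was nearest to RCOR3 (0.923), PPARGC1B (0.913) and RICTOR (0.91), and TGFBR1 to DSE (0.912), RB1CC1 (0.909) and KIFAP3 (0.886).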

How the data were processed

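The authors deposited read counts per gene and library in the layout of STAR's gene output, and STAR 2.7.2a is named in the submitters' processing notes. The notes name GRCh37 and hg19, but all 58735 gene identifiers are those of GENCODE 29 on GRCh38, from which coordinates and UTRs were taken. The alignment build and library selection are unknown, as the sources used here do not give them. Strandedness is not stated there either. Summed gene counts in strand column 3 were 0.907 to 1.01 times those in strand column 4, as where strand is not kept. The unstranded deposited counts were used, without the 4 summary lines. CPM used the total gene count. Tests were edgeR 4.0.16 (R 4.3.3) quasi-likelihood with TMM, filterByExpr and a threshold of 0.05 on Benjamini-Hochberg adjusted p. Each comparison was fitted on its 6 libraries over all genes, and the difference between both effects was fitted over 12. Alternatives used DESeq2 1.42.0, limma-voom (3.58.1), other scaling, filters, strand columns, a replicate block and leaving out each library. Ratios of summed counts have exact 95% conditional binomial intervals. Same-numbered miR-211 and control libraries deviated together (r 0.248, 0.305 and 0.239 across all genes tested, each over 0.1), so the numbers were taken to pair them, although over genes averaging 10 CPM or more the values were 0.37, 0.0736 and 0.43, with pair 2 under that limit. For U1 siRNA r was 0.14, 0.0907 and -0.048 across all genes tested, so the numbers were not taken to pair those libraries. Over genes averaging 10 CPM or more the U1 siRNA values were 0.0639, 0.361 and 0.184, with pair 1 under the limit, so this choice depends on the gene set. The 10 genes and the pathway lists were chosen with earlier results of these data known. Named were all 10 genes, per list up to 4 genes of highest mean CPM and any past the threshold, and for likeness the 3 nearest genes of 3 listed ones, and MIR211.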

Additional observations from a re-analysis of the deposited data

How the results depend on the processing

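Over 14 alternatives, no listed gene passed the test: with miR-211, 97 of 107 values kept their direction and 10 reversed (lowest adjusted p 0.645), and with U1 siRNA 71 of 84 kept it and 13 reversed (lowest 0.979). With the replicate block, which the pairing check calls for with miR-211, the count of genes called stayed at 1 there and at 0 with U1 siRNA, and no listed gene's call changed. The count with miR-211 was 2 without a filter and in each strand column, MIR211 plus AC010255.3 without the filter and MIR3120 by strand (named after their values were seen), and with U1 siRNA 7 without a filter. For the difference between both effects it was 3 without a filter, 0 in either strand column and with the block, and 0 to 1 with a library left out. The median of the listed genes ran from -0.18 to -0.064 with miR-211 and from -0.051 to 0.085 with U1 siRNA when a library was left out. Each strand column holds only a part of the unstranded counts, so its values rest on fewer counts. Reversed with miR-211 were POU3F2 (0.46) and IGF2R (0.045) in strand column 3 and NFAT5 (0.017) in strand column 4. Reversed with U1 siRNA were RAB22A (-0.0032 with DESeq2, -0.0022 with size factors by RLE, -0.083 without a filter, -0.23 in strand column 4, -0.0026 with the block), TGFBR1 (-0.069, strand column 3) and IGF2R (0.017, strand column 4). With a library left out, ranges that crossed 0 were, with miR-211, -0.20 to 0.11 for POU3F2, -0.16 to 0.0006 for TGFBR1, -0.040 to 0.31 for TGFBR2 and -0.31 to 0.079 for IGF2R, and with U1 siRNA, -0.21 to 0.11 for IGF2R, -0.12 to 0.10 for RAB22A and -0.054 to 0.020 for SOX4. The cause was not tested. Depth limits SNAI1, TGFBR2, KCNMA1 and PDK4 most.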
